A study of Mus musculus with 4 samples.

Results

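The semaphorins with their plexin and neuropilin receptors, and the ephrins with their Eph receptors, are 2 signalling systems that steer axons and shape synapses. Here 50 of their genes were followed, 27 coding for ligands and 23 for receptors, and every listed region of differential DNA methylation sharing at least 1 bp with a gene body was taken. In the authors' deposited table, 188 of 101350 regions met this rule, in 42 of the 50 genes.

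The regions come from whole-genome bisulfite sequencing, in which cytosines that resist conversion are read as methylated, of the somatosensory cortex of mice aged 2.5 months. The conditional knockout (cKO, n = 2 libraries) has the genotype Nsd1Nex-cKO, which removes the histone H3 lysine 36 methyltransferase NSD1 under the Nex driver of cortical excitatory neurons. The control (n = 2 libraries) has the genotype Nsd1fl/+, and whether it carries the driver is not given in the sources used here. The DNA came from the whole tissue, so each level averages over neurons and all other cells, and a change in the number of cells of a type cannot be told apart from a change within cells. The table gives 1 mean level per group and region, with no value per library and no coverage, so no spread between libraries, depth or test of single differences can be given. The regions were listed because they differ, and the direction and the levels below are therefore a description of called regions.

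Semaphorins are secreted or membrane-bound proteins that mostly repel growing axons. They bind plexins, and the secreted class 3 members act through neuropilins as co-receptors. Ephrins are membrane-bound and signal through Eph receptor tyrosine kinases at contacts between cells, in both directions, and both systems continue to act on spines and synapses in the adult cortex. In neurons, cytosines are methylated at CG and also outside it, mostly in the CHH context (H is any base but G).

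Of the 188 regions, 89 were CG regions and 99 were CHH regions, and 0 were CHG regions. In CG, 68 regions in 28 genes were lower in cKO and 21 in 16 genes were higher. In CHH the balance was the other way, with 65 regions in 17 genes higher and 34 in 12 genes lower. The share of regions higher in cKO was thus 23.6% in CG (95% exact binomial interval 15.2% to 33.8%) and 65.7% in CHH (55.4% to 74.9%). Over all regions in protein-coding genes these shares were 14.8% in CG and 41.2% in CHH. The intervals count regions only, which are not independent within a gene.

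The families lie in long genes, which bears on how many carry a region. Their median length was 40.2 kb against 17.2 kb for all 21788 protein-coding genes, and 22 of the 50 are at least 100 kb long. Of all protein-coding genes, 37.2% carried at least 1 listed region, 18.6% a CG region lower in cKO, 7.26% a CG region higher, 15.2% a CHH region lower and 15.0% a CHH region higher. The members' shares were 56%, 32%, 24% and 34% for these last 4 calls. Against genes of at least 100 kb the gap was smaller. In such genes 54.0% carried a CG region lower in cKO and 25.7% a CG region higher, against 17 and 8 of the 22 long members. A CHH region lower was carried by 42.5% of long genes and a CHH region higher by 55.6%, against 10 and 14 of the 22 long members. These are descriptions, since the members were not sampled from the genome.

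**Figure D1:**
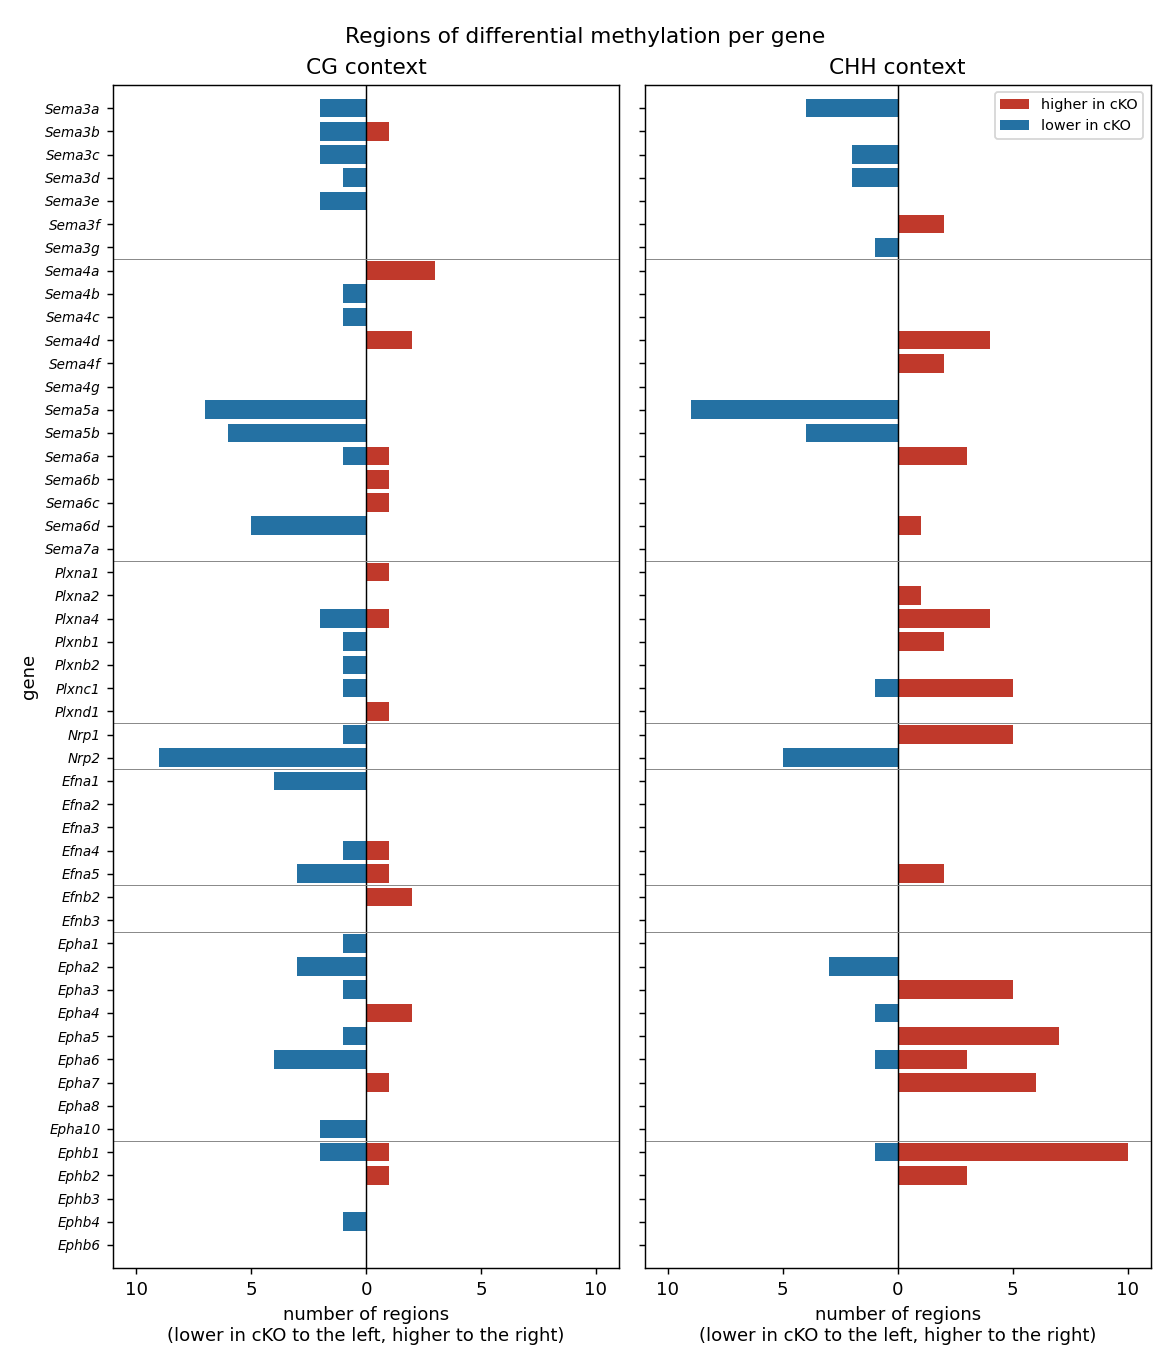
Number of regions per gene in the CG (left) and CHH (right) context, with regions lower in cKO drawn to the left of 0 and regions higher in cKO to the right; grey lines separate the gene groups. Sema5a, Sema5b and Nrp2 extend to the left in both panels, while Ephb1 reaches 10 CHH regions to the right.

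The levels were like those of other genes. The median levels in CG losses of the members were 74.5% for control and 40.6% for cKO, against 75.2% and 42.5% over all protein-coding genes. For CG gains these medians were 53.3% and 79.0%, against 51.1% and 77.8%. For CHH gains they were 1.90% and 7.15%, against 1.71% and 6.93%, and for CHH losses 6.18% and 1.14%, against 5.71% and 1.10%. Here and below, a gain is a region higher in cKO and a loss one lower in cKO. The members' levels in a listed region were thus close to those of other genes, while the shares of the directions lay further apart, and neither difference was tested. The CG regions higher in cKO were denser in cytosines, with a median of 14.3 CG cytosines per 100 bp (11 over all protein-coding genes) against 7.70 in those lower (7.57).

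**Figure D2:**
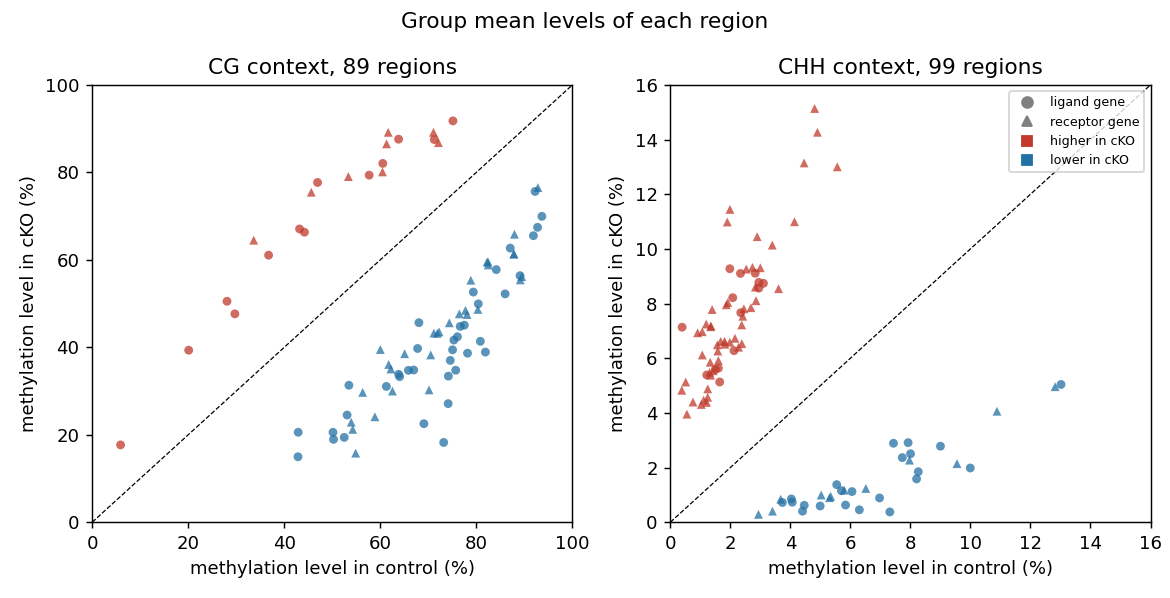
Mean methylation level in cKO (vertical axis, %) against control (horizontal axis, %) for each region, in CG (left, 89 regions) and CHH (right, 99 regions); circles are ligand genes, triangles receptor genes, and the dashed line marks equal levels. CHH regions higher in cKO start at or below 5.56% in control, and the 4 that end highest in cKO, at 13.0% to 15.1%, are all in receptor genes.

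The class 3 semaphorins, which are secreted and signal through neuropilin and plexin complexes, were mostly lower in cKO. Their 7 genes held 9 CG regions lower and 1 higher, and 9 CHH regions lower and 2 higher. Sema3a, the classical repellent of cortical axons and a component of perineuronal nets, had 4 CHH regions that were all lower. Their levels in control were 5.84%, 5.70%, 8.21% and 9.99%, and in cKO 0.629%, 1.15%, 1.58% and 1.98%. A CG region of Sema3a went from 74.1% in control to 27.1% in cKO (chromosome 5, 13314282 to 13314439), 288 bp before a CHH region that was lower too. At 531 bp from the start of the gene body, another CG region held 61.3% in control and 31.1% in cKO.

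Sema3c held 2 CHH regions lower (3.73% and 4.99% in control, 0.722% and 0.594% in cKO) and 2 CG regions lower. Sema3d held 2 CHH regions lower (4.03% and 9.0% in control, 0.853% and 2.78% in cKO) and a CG region at 86.0% in control and 52.2% in cKO. Sema3e, a ligand that binds PlexinD1 directly, had only CG regions, from 63.8% to 33.8% and from 73.2% to 18.2%. Sema3a, Sema3c, Sema3d and Sema3e lie on chromosome 5 within 5.35 Mb (12383161 to 17730268), and all 15 of their regions were lower in cKO. The 36 listed regions of that stretch outside these 4 genes were also mostly lower, with 30 lower and 6 higher. Over all listed regions 94.4% of CG, 84.0% of CHH and 75.6% of CHG regions were lower, so a majority of losses is not particular to this stretch. Those shares include regions outside genes. In protein-coding genes, where the 15 lie, 14.8% of CG and 41.2% of CHH regions were higher, so losses were less dominant there.

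The other class 3 genes differed from that group. Sema3f, which signals through Nrp2, had 2 CHH regions higher in cKO, at 2.83% and 2.12% in control and 9.11% and 6.28% in cKO. Its neighbour Sema3b on chromosome 9 had a CG region higher (71.3% to 87.5%) beside 2 lower (93.7% to 69.9% and 67.8% to 39.7%). Sema3g had a single CHH region, lower in cKO (4.41% to 0.404%).

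The membrane semaphorins split by gene. Their 13 genes held 21 CG regions lower and 8 higher, and 13 CHH regions lower and 10 higher. Sema5a and Sema5b, transmembrane proteins with thrombospondin repeats, held 13 of the 21 CG losses and all 13 CHH losses, and 0 regions higher. Sema5a had the most regions of all members, with 7 in CG and 9 in CHH over 452 kb. Its 9 CHH regions ranged from 4.06% to 13.0% in control (median 7.31%) and from 0.377% to 5.04% in cKO (median 1.12%). Its strongest CG region (chromosome 15, 32330033 to 32330815, 34 cytosines) went from 80.8% in control to 41.4% in cKO and ranked 876 by area statistic among the 44497 CG regions lower in cKO. Sema5b had 6 CG losses, the strongest over 26 cytosines from 89.1% to 56.4% (chromosome 16, 35564324 to 35564397). Its 4 CHH regions held 8.0%, 6.97%, 7.92% and 5.54% in control and 2.51%, 0.888%, 2.91% and 1.38% in cKO.

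Other membrane semaphorins had gains. Sema4d, a ligand of PlexinB1 that promotes inhibitory synapse formation, had 6 regions, all higher in cKO. Its 4 CHH regions ranged from 1.22% to 2.95% in control and from 5.39% to 8.57% in cKO, and its 2 CG regions went from 28.1% to 50.5% and from 75.1% to 91.8%. Sema4a had 3 CG regions higher and no other, with 36.7%, 20.1% and 43.2% in control and 61.1%, 39.3% and 67.1% in cKO. Sema4f had 2 CHH regions higher (2.95% and 1.65% in control, 8.78% and 5.13% in cKO). Sema4b (50.3% to 18.9%) and Sema4c (65.9% to 34.7%) each had a single CG region lower in cKO.

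Sema6a, which binds PlexinA2 and PlexinA4, had 3 CHH regions higher, at 3.10%, 1.98% and 1.5% in control and 8.74%, 9.28% and 5.59% in cKO. Its 2 CG regions were split, from 67.0% to 34.8% and from 57.7% to 79.4%. Sema6b (29.7% to 47.7%) and Sema6c (44.2% to 66.3%, 30 cytosines) each had a single CG region, higher in cKO. Sema6d had 5 CG regions lower, with medians of 77.5% in control and 39.4% in cKO, and a CHH region that was higher (2.34% to 9.10%). For Sema4g and Sema7a no region was listed.

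In the plexins, the receptors that carry an intracellular GTPase-activating domain, CHH methylation was higher in cKO at 12 of 13 regions. Plxnc1, the receptor of Sema7a, held 5 of these. The levels were 2.69%, 5.56%, 1.99%, 1.92% and 1.20% in control and 7.85%, 13.0%, 11.4%, 8.04% and 7.25% in cKO. The third of these (chromosome 10, 94852760 to 94852989, 86 cytosines) ranked 120 among the 8596 CHH regions higher in cKO. The 1 lower CHH region of Plxnc1 went from 2.94% to 0.288%. Plxna4, a co-receptor for Sema3a, had 4 CHH regions higher, at 1.11%, 1.06%, 2.27% and 1.25% in control and 4.47%, 6.97%, 6.40% and 4.88% in cKO. Plxnb1, the Sema4d receptor, had 2, of which the longer (chromosome 9, 109118419 to 109118668, 108 cytosines) held 0.755% in control and 4.4% in cKO. Plxna2 had a single CHH region, 1.43% to 5.54%, at the far end of the gene.

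The CG regions of the plexins were few, with 5 lower and 3 higher. Plxnb1 had the largest CG difference of the plexins, from 54.9% to 15.8% (chromosome 9, 109096527 to 109096858), at 1091 bp from a listed transcription start and shared with the predicted gene Gm7628. Plxna4 was split, with 80.3% to 48.7%, 62.2% to 35.0% and, higher, 45.6% to 75.5%. Plxna1 (71.1% to 89.2%) and Plxnd1 (72.1% to 86.8%) each had a single region, higher in cKO, while Plxnc1 went from 87.9% to 65.9%.

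Plxnb2, a receptor for class 4 semaphorins, had a single CG region, lower in cKO from 76.5% to 47.7% (chromosome 15, 89174223 to 89174434, 17 cytosines). It lay 21 bp upstream of the promoter window of an inner start of the gene in RefSeq (GRCm38.p6, the assembly of mm10), the smallest gap between a region and a promoter window among the members. That window, minus strand, chr15:89173902-89174201, is shown with each CG in capitals (the letters CG read the same on both strands). It has 15, and 34.6% of all RefSeq promoter windows of this length have at least as many.
Plxnb2: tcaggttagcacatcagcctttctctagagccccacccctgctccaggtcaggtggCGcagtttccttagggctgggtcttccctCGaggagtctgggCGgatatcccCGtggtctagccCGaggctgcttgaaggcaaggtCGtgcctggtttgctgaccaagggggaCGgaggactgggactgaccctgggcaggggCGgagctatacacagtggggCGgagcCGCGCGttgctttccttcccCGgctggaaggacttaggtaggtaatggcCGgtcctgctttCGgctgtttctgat

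The neuropilins, co-receptors without a catalytic domain of their own, differed in direction. Nrp1, which binds Sema3a and VEGF, had 5 CHH regions, all higher in cKO. Their levels were 2.74%, 0.910%, 2.53%, 4.46% and 1.98% in control and 9.32%, 6.93%, 9.26%, 13.1% and 6.59% in cKO. Nrp2, which binds Sema3f, also had 5 CHH regions, and all were lower in cKO. These held 7.97%, 12.8%, 6.52%, 5.31% and 3.40% in control and 2.27%, 4.96%, 1.24%, 0.898% and 0.405% in cKO. In CG, Nrp2 had 9 regions, all lower, with medians of 71.2% in control and 43.3% in cKO, the most CG regions of any member. Nrp1 had 1, lower too (61.7% to 36.1%). Per 100 kb of gene, Nrp2 carried 12.1 regions and Nrp1 4.08. The opposite CHH directions of Nrp1 and Nrp2 rest on group means and were not tested between libraries.

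**Figure D3:**
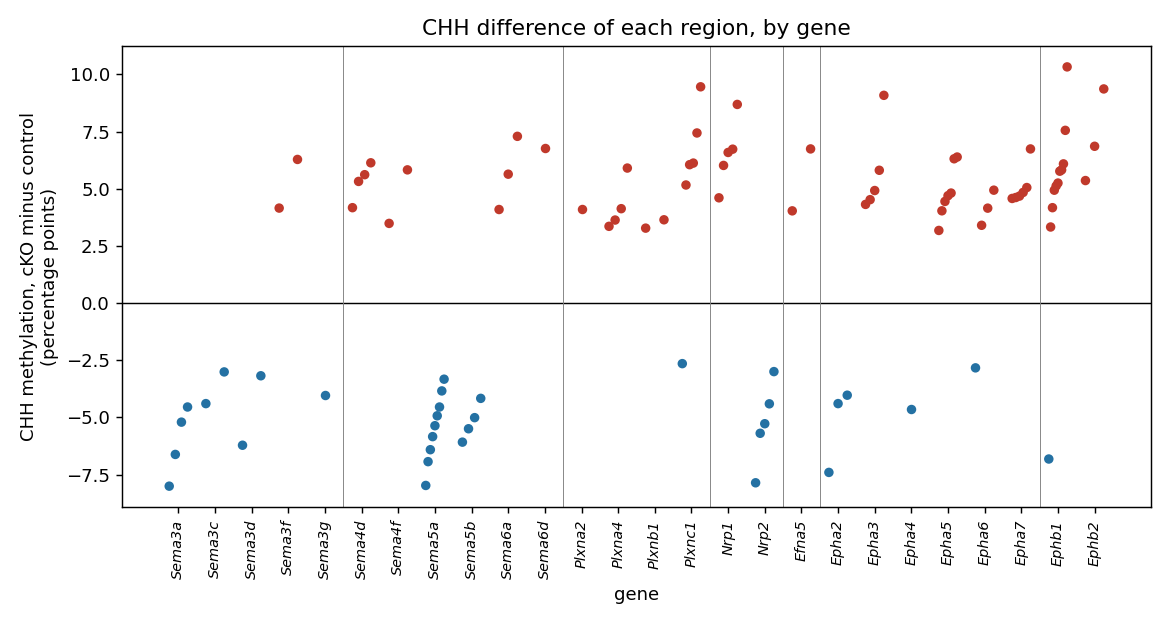
Difference in CHH methylation, cKO minus control in percentage points, for each of the 99 CHH regions, by gene; grey lines separate the gene groups. Nrp1 lies wholly above 0 and Nrp2 wholly below, and only Plxnc1, Epha6 and Ephb1 have points on both sides.

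The ephrins, ligands of the Eph receptors, carried few regions and nearly all in CG. Their 7 genes held 8 CG regions lower and 4 higher, with 2 CHH regions higher and 0 lower. Efna5, a ligand in topographic mapping of sensory axons, held both CHH regions, at 0.393% and 1.60% in control and 7.14% and 5.63% in cKO. The first (chromosome 17, 62686874 to 62687049, 78 cytosines) ranked 246 among CHH regions higher in cKO. Its CG regions were 3 lower (52.5% to 19.4%, 53.5% to 31.3% and 68.0% to 45.6%) and 1 higher (63.8% to 87.6%). Efnb2, a transmembrane ephrin that also signals backward into its own cell, had 2 CG regions, both higher, at 46.9% and 60.5% in control and 77.7% and 82.1% in cKO. The larger of these (chromosome 8, 8620638 to 8620966, 44 cytosines) ranked 110 among the 2626 CG regions higher in cKO. For Efna2, Efna3 and Efnb3 no region was listed.

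Efna1 and Efna4 lie with Efna3 within 66.3 kb on chromosome 3 and were the members densest in regions, with 43.4 and 43.1 per 100 kb. These rates rest on only 4 regions over 9.22 kb and 2 regions over 4.64 kb. Efna1 had 4 CG regions, all lower, at 76.6%, 50.2%, 53.1% and 42.9% in control and 44.8%, 20.6%, 24.5% and 15.0% in cKO. Efna4 had a CG region lower (74.6% to 37.0%) and, 126 bp into the gene from its listed start, a CG region higher in cKO. That region (chromosome 3, 89337654 to 89337902) has 59 cytosines, held 5.92% in control and 17.7% in cKO, and was the strongest CG gain of the members by area statistic, at rank 86 of 2626. It was also the least methylated CG region of the members in control. The 5 listed regions of the 66.3 kb outside these genes were all lower in cKO, as were most listed regions anywhere (94.4% in CG and 84.0% in CHH).

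The promoter windows nearest to these opposite changes are shown because the gain in Efna4 lies 76 bp downstream of its window and the nearest of 3 losses of Efna1 lies 282 bp downstream of the window of an inner start (89279645). The outer start of Efna1 (89280951) has a window of its own, 1588 bp from the nearest region, which is not shown. Both are on the minus strand in RefSeq (GRCm38.p6), Efna4 at chr3:89337979-89338278 with 11 CGs and Efna1 at chr3:89279596-89279895 with 20, again with each CG in capitals. At least as many CGs are held by 41.4% and 26.5% of all windows. Promoter windows (250 bases before to 50 after a start) were matched for 44 of the 50 genes, in 58 windows with a median of 20.5 CGs, against 7 over all 32851 windows. None of the 58 overlapped a listed region. The share of all windows that do was not counted, and only 479 CG region starts lay inside promoter windows, so this is not read as a trait of these genes. A count of CGs is a description of the sequence and says nothing of binding or activity.
Efna4: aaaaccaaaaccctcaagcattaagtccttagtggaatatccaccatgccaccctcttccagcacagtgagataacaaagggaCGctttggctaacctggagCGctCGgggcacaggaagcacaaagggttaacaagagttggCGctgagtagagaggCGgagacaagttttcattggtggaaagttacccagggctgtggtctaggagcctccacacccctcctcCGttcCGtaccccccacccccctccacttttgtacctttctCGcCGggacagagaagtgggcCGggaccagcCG
Efna1: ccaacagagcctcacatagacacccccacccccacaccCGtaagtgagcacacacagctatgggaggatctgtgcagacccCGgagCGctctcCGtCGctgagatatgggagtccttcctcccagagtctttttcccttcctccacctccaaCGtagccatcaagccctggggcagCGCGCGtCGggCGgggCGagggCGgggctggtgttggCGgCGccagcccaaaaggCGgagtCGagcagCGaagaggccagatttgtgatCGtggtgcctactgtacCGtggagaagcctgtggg

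In the Eph receptors, CHH regions were mostly higher in cKO, with 34 higher and 6 lower in 14 genes. Ephb1, a receptor for B ephrins in axon guidance and synapse formation, held 10 of the higher ones and 1 lower. In the 10 the levels ranged from 1.25% to 4.81% in control (median 2.14%) and from 4.57% to 15.1% in cKO (median 7.75%). The strongest (chromosome 9, 102152914 to 102153202, 99 cytosines) went from 4.81% to 15.1% and ranked 117 of 8596. Of the 21788 protein-coding genes, 78 had at least as many CHH regions higher in cKO as Ephb1. That rank takes no account of gene length, and Ephb1 is 433 kb long. The region that was lower went from 10.9% to 4.06% and had the highest control level of the receptor genes of this system. Ephb2, which clusters NMDA receptors at synapses, had 3 CHH regions higher, at 4.14%, 4.90% and 2.45% in control and 11%, 14.3% and 7.81% in cKO.

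Among the EphA receptors, Epha5 had 7 CHH regions, all higher, with 0.383% to 3.0% in control (median 1.39%) and 4.39% to 9.31% in cKO (median 6.51%). Epha7 had 6, all higher, with medians of 1.87% in control and 6.50% in cKO. Epha3 had 5, all higher, at 1.57%, 1.60%, 1.33%, 1.35% and 1.90% in control and 6.49%, 5.92%, 5.85%, 7.15% and 11% in cKO. These 3 are ephrin-A receptors that act in graded axon maps. Epha6, the longest member at 969 kb, had 3 CHH regions higher and 1 lower.

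Epha2, a receptor known mainly from epithelia, stood apart with 3 CHH regions lower and 3 CG regions lower within 28.2 kb. Its CHH levels were 5.03%, 5.35% and 9.55% in control and 0.996%, 0.947% and 2.14% in cKO, and the last was the strongest CHH loss of the members, at rank 4633 of 45012. A CHH region and a CG region of Epha2 overlapped by 106 bp, and the CG level there went from 89.5% to 56.2%. Epha4, which acts in axon repulsion and at spines, had a CHH region lower (5.79% to 1.17%) and, 914 bp away, a CG region higher (60.5% to 80.1%), with another CG region higher at 61.3% and 86.5%.

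The CG regions of the Eph receptors were 15 lower and 5 higher. Ephb1 held 2 of the losses, from 72.2% to 43.5% over 27 cytosines (chromosome 9, 102183691 to 102184054) and from 89.1% to 55.4%, and a gain from 61.7% to 89.2%. Epha6 held 4 losses, at 82.2%, 70.2%, 77.7% and 92.8% in control and 59.5%, 30.3%, 48.4% and 76.5% in cKO, and the second was the largest CG difference of the receptor genes. Ephb2 (33.6% to 64.5%) and Epha7 (53.3% to 79.0%) each had a single CG region, higher in cKO. Epha1 (53.9% to 22.9%), Ephb4 (54.3% to 21.2%), Epha3 (71.9% to 43.2%) and Epha5 (74.4% to 45.6%) each had a single one, lower, and Epha10 had 2 (87.8% to 61.3% and 60.0% to 39.5%). For Epha8, Ephb3 and Ephb6 no region was listed.

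Set side by side, receptor genes had a larger share of CHH regions higher in cKO than ligand genes. In receptors it was 51 of 63 (81.0%, 95% exact binomial interval 69.1% to 89.8%) and in ligands 14 of 36 (38.9%, 23.1% to 56.5%), with 41.2% over all protein-coding genes. Sema5a alone held 9 of the 22 ligand losses, and without it the ligand share was 51.9%, a value added after the data were seen. Most other ligand losses lay in Sema5b and Sema3a (4 each) and in Sema3c and Sema3d (2 each), genes without a CHH gain. The ligand share thus rests on few genes, and it was not computed without these others. With 1 vote per gene, 11 of 14 receptor genes and 6 of 12 ligand genes were mostly higher. The 41.2% is a share of regions, and no share with 1 vote per gene was computed over all genes. In CG the shares were close, at 21.1% in receptors (8 of 38) and 25.5% in ligands (13 of 51). Receptor genes are longer, with a median of 115 kb against 27.9 kb in ligands. In genes of at least 100 kb the CHH shares were 84.5% in receptors and 32.3% in ligands. The 41.2% is not matched for length, and no such share was computed over all long genes. Of all genes of at least 100 kb, 55.6% carried a CHH gain and 42.5% a CHH loss, against 15.0% and 15.2% of all protein-coding genes.

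The ephrin system had a larger share of CHH regions higher in cKO than the semaphorin system, at 36 of 42 (85.7%, 71.5% to 94.6%) against 29 of 57 (50.9%, 37.3% to 64.4%). The semaphorin ligands had 35.3% (12 of 34) and their receptors 73.9% (17 of 23), while the Eph receptors had 85.0% (34 of 40) and the ephrins only 2 CHH regions. Of the 42 CHH regions of the ephrin system, 40 thus lie in receptor genes, so ligands and receptors could be set side by side within the semaphorin system only. Among receptors alone the systems were closer, at 73.9% and 85.0%, with overlapping intervals (51.6% to 89.8% and 70.2% to 94.3%). With 1 vote per gene, 7 of 9 genes of the ephrin system and 10 of 17 of the semaphorin system were mostly higher. These votes too have no such share over all genes beside them. In CG the shares were 28.1% (9 of 32) and 21.1% (12 of 57). No p-value is given, because regions of a gene share their cells and libraries and the table holds no value per library.

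**Figure D4:**
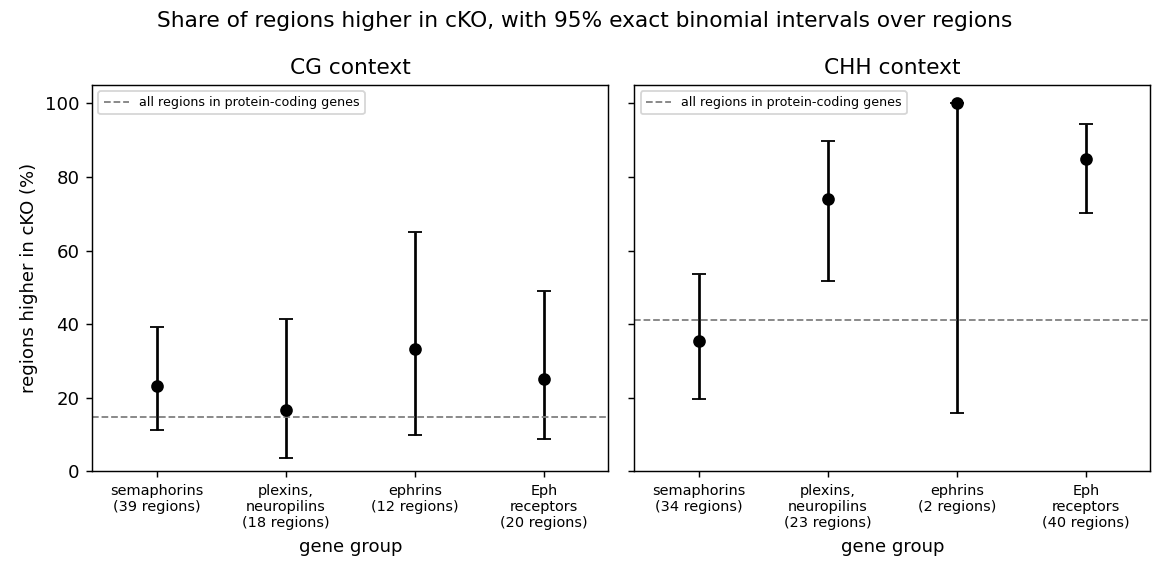
Share of regions higher in cKO (vertical axis, %) in the 4 gene groups, for CG (left) and CHH (right); bars are 95% exact binomial intervals over regions, and the dashed line is the share over all regions in protein-coding genes, not matched for gene length. In CHH the plexins with neuropilins and the Eph receptors lie above the line at 73.9% and 85.0%, and the semaphorins lie at 35.3%.

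Within a gene, CHH regions mostly shared a direction. Of the 26 members with a CHH region, 14 had only higher ones, 9 only lower ones and 3 both. Of the 13 members with at least 4 CHH regions, 10 had all of them in 1 direction, with 6 all higher and 4 all lower. Over the genome, 77.0% of protein-coding genes with 4 or more CHH regions had a single direction and 31.5% had all of them higher. A shared direction within a gene was thus about as frequent among all genes, at 77.0%, as among the members, at 76.9%. The 6 are Sema4d, Plxna4, Nrp1, Epha3, Epha5 and Epha7, and the 4 are Sema3a, Sema5a, Sema5b and Nrp2.

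The contexts did not always go together. Of 22 members with regions in both contexts, 7 had only losses in both (Sema3a, Sema3c, Sema3d, Sema5a, Sema5b, Nrp2 and Epha2) and 3 only gains in both (Sema4d, Epha7 and Ephb2). In 8 others (Sema6a, Sema6d, Plxna4, Plxnb1, Nrp1, Efna5, Epha3 and Epha5) all CHH regions were higher while at least 1 CG region was lower. Only Epha4 had the reverse, and Plxnc1, Epha6 and Ephb1 had CHH regions in both directions. Of the 10 pairs of a CG and a CHH region within 2 kb of each other, 8 went in the same direction. The exceptions were in Epha4 and Epha5, and of the others only the pair in Sema4d was a gain in both contexts. The 10 pairs came from 8 genes, and some pairs share a region. Over all protein-coding genes only 14.8% of CG regions were higher. Neither these pairs nor the split of the 22 members was counted over all genes, so neither is read as a trait of the members.

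The median position of gains lay further along the gene than that of losses, with no test made, but for CG this came from the ligand genes. In genes with a known strand, CG gains lay at a median position of 71.2% of the gene length from the start, and 7 of 17 lay in the last 20% of the gene. Over all protein-coding genes 30.2% of CG gains lay there. These 7 were all in ligand genes: both gains of Efnb2, 2 of Sema4a and 1 each of Sema4d, Sema6b and Sema6c. In receptor genes 0 of 6 CG gains lay there, and their median position, 37.2%, was close to the 36.3% of receptor CG losses. CG regions lower in cKO had a median of 38.7%, with 7 of 63 in the last 20%, against 16.6% over all genes. For CHH gains the median position was 64.3% and for CHH losses 49.9%. Over all protein-coding genes with a known strand the medians were 61.3%, 43.8%, 56.5% and 41.2% in the same order. Within 2 kb of a listed transcription start lay 8 CG losses, 1 CG gain (Efna4), 2 CHH losses and 0 CHH gains. Several of these CG losses are neighbouring regions of Efna1. The same counts were not made over all protein-coding genes, so they are not read as a trait of the members. Exons and introns were not analysed here.

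**Figure D5:**
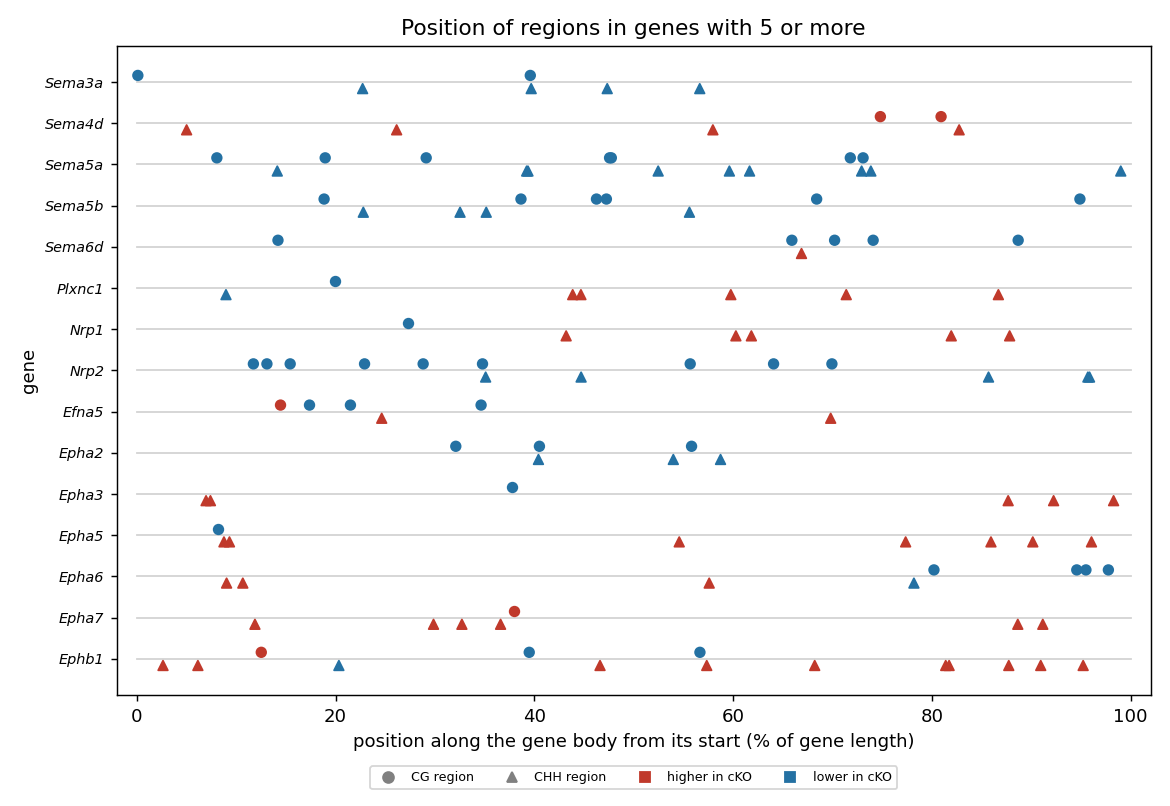
Position of each region along the gene body (horizontal axis, % of gene length from the start) in the 15 genes with a known strand and at least 5 regions; circles are CG regions, triangles CHH regions, red is higher and blue lower in cKO. Nrp2 and Sema5a show losses along the gene, and the 5 CHH gains of Epha3 lie toward the ends of the gene, with a CG loss between them.

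Genes that act downstream of the receptors were described from lists drawn up by role. Of 25 genes of semaphorin signalling, 7 had a CG region lower and 9 a CG region higher, 3 a CHH region lower and 11 a CHH region higher. Over all protein-coding genes the shares for these calls were 18.6%, 7.26%, 15.2% and 15.0%. In genes of at least 100 kb they were 54.0%, 25.7%, 42.5% and 55.6%. The median length in the list is 108 kb, but it holds genes above and below 100 kb, so neither set of shares matches it in length. Of the CHH regions of the list, 77.4% were higher (24 of 31). Examples are Arhgef12, an exchange factor for RhoA that binds B plexins, with a CHH region from 0.517% to 7.43%, and Mical3, a flavoprotein oxidase of the family that binds plexins, with 10 CG losses and 3 gains. Dpysl2, Dpysl4, Crmp1, Rnd1, Rras, L1cam, Rhod and Rac1 of this list had 0 regions. Of 23 genes of Eph signalling, 10 had a CG region lower, 6 a CG region higher, 7 a CHH region lower and 11 a CHH region higher, and 53.3% of their CHH regions were higher (40 of 75). Their median length is 101 kb, and this list too holds genes above and below 100 kb. The shares over all genes and over long genes given above thus do not match it in length either. Chn2, a Rac-specific GTPase-activating protein related to the chimaerin downstream of EphA4, had 7 CHH gains, the strongest from 0.728% to 4.63%. Rgs3, which binds B ephrins, had 15 CHH losses, the strongest from 10.4% to 3.12%. Kalrn, an exchange factor at spines, had 5 CG gains, the strongest from 9.35% to 27.2%. Chn1, Rasa1, Sdcbp and Crk of the Eph list had 0 regions. Sipa1l1 is in both lists. The 3 family genes on the X that are no members (Plxna3, Plxnb3 and Efnb1) had 0 regions.

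Other losses stood beside those of the members. On mitochondrial DNA, the 4 listed CHH regions averaged 6.52% in control against 0.510% in cKO, and the median size of the difference was 5.87 points. Of the members' CHH regions, 10 of 34 losses and 23 of 65 gains differed by more than that. With these regions alone, a choice made after the data were seen, the CHH share was 85.7% in receptors and 41.7% in ligands. The cut used the size alone for gains and losses, while the mitochondrial difference was a loss. It therefore does not test whether that difference bears on the direction shares. Markers of other cells in the tissue had CG regions lower in 4 of 8 astrocyte, 4 of 10 oligodendrocyte lineage, 4 of 8 microglia and 6 of 8 endothelial and mural markers, and CG regions higher in 0, 1, 0 and 1. In the same order, CHH regions were lower in 3, 2, 5 and 7 of these markers and higher in 1, 1, 2 and 0. Over all protein-coding genes 18.6% carried a CG region lower, 7.26% a CG region higher, 15.2% a CHH region lower and 15.0% a CHH region higher. These shares are not matched for length. The median lengths of the marker lists were 17.4, 16.4, 22.6 and 44.6 kb in the same order, against 17.2 kb for all protein-coding genes. Flt1 alone held 9 of the 22 CG losses and 12 of the 21 CHH losses of the endothelial and mural list. The part of the mitochondrial difference and of cell makeup in the members' losses was not tested.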

How the data were processed

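Bisulfite libraries of whole somatosensory cortex DNA, 2 from cKO and 2 from control mice, were the source of all values. CTAB extraction, mechanical fragmentation, bisulfite treatment and PCR are recorded per the labels' protocols. CASAVA, Bowtie2 and the build mm10 are named in the submitters' processing notes. Not given in the sources used here are the region caller, its thresholds, how replicates were used and the conversion rate. Whether the 2 libraries of a group are separate animals is not stated either. The authors deposited a mean level per group and region as a fraction, printed here as a percent. The authors' area statistic per region, a deposited score, served only to rank and filter. The deposited difference and the number of cytosines are the authors' too.

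Regions were assigned to members by an overlap of at least 1 bp with the gene body in RefSeq on GRCm38.p6, where all 50 members matched. RefSeq entries placed within the first 3 Mb of autosomes or the X were dropped, which left 21788 protein-coding genes. Of 479 CG region starts inside promoter windows, 479 fell on a CG, so positions count from 1. Strand came from the promoter windows, and Sema3b, Sema3f, Sema6a, Plxna1, Plxna4 and Efnb3 had none. Intervals are exact Clopper-Pearson at 95% and cover the counting of regions only. Depth is unknown. The overlap step was tested on simulated data. Python 3.11.15, pandas 2.3.3, scipy 1.17.1 and matplotlib 3.10.9 were used.

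The members and lists were chosen with earlier results of these data known. Genes were named by rule: per group those with the most regions, the strongest region per context and direction, every member with a CG gain, and members without a region by name. The other members were named after their values were seen. The design had planned to print sequences of the strongest regions, and promoter windows took their place because no genome was used here. Alternatives changed the overlap, the gene window, filters on regions, the unit counted and the members used.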

Additional observations from a re-analysis of the deposited data

How the results depend on the processing

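Of 86 values recomputed under alternative settings, 69 stayed close to the value reported (counts within 1.5 times, shares within their interval) and 17 moved, all of them counts. Many of the 69 had little or no room to move, and the intervals of the shares are wide, so their number does not measure robustness. The midpoint and the other-gene settings returned every main value. The minimum of 10 cytosines removed no CHH region, and leaving out Sema5a cannot change a share of receptor or ephrin genes. The receptor share of CHH regions higher in cKO stayed above the ligand share in every setting, by 28.6 points with 1 vote per gene and by more in the others, and the ephrin system above the semaphorin system, by 19.0 points with 1 vote per gene. CG losses (68) numbered 39 with at least 10 cytosines, 36 with an area statistic above the median, 34 with a difference of at least 30 points and 26 with 1 vote per gene. CG gains (21) numbered 13, 12, 2 and 10 under the same settings, and 10 in genes of at least 100 kb. CHH losses (34) numbered 15 with an area statistic above the median, 17 with a difference of at least 5 points, 9 with 1 vote per gene and 10 above the mitochondrial median difference. CHH gains (65) numbered 33, 35, 17 and 23 under these settings. These filters and votes keep fewer regions by construction. The settings without Sema5a, with long genes only and with the mitochondrial median were added after the data were seen. No paired analysis was possible because the table holds group means and no value per library, which also means that no library could be left out. Depth and its limits are unknown.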
